A study of Mus musculus with 6 samples.

Results

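Neutrophil granule and maturation genes are described here in RNA of mouse spleen taken without and with Dox. The set holds 10 genes of the 40808 gene identifiers in the count table: Mpo and Elane of the primary granules, Camp, Ngp, Ltf and Lcn2 of the secondary granules, the calgranulins S100a8 and S100a9, and the surface proteins Ly6g and Cxcr2. They were matched by Entrez identifier to mouse symbols, and all 10 were found. The genes were picked knowing how they moved in these 6 libraries, in particular that Ly6g had no counts without Dox, so their values with and without Dox are a description and carry no test.

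The study's title concerns the control of NOTCH receptors by UVRAG, ITCH and the ESCRT sorting machinery. RNA came from leukemia cells of the spleen of mice that had received bone marrow transplants, and 3′ ends of mRNA were sequenced in 6 libraries, 3 labelled as without Dox (replicates 4, 5 and 6) and 3 as with Dox (replicates 10, 11 and 12). The labels give "Dox" only in that short form. Its dose and duration, the genotype and construct it acts on, and the strain, sex and age of donors and recipients are not in the labels. They do not name the kind of leukemia, its driver, or whether each library came from a separate mouse, so the tests measure the spread between libraries, which may be technical. No purification of leukemia cells is described. In bulk RNA of this kind, fewer neutrophils and less RNA per neutrophil cannot be told apart.

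Neutrophils are made in the bone marrow, and in some settings in the spleen, from granulocyte-monocyte progenitors, and they fill their granules in a fixed order. Promyelocytes make the primary or azurophil granules, with myeloperoxidase and serine proteases. Myelocytes and metamyelocytes make the secondary granules, with lactoferrin, lipocalin and antimicrobial peptides. The calgranulin proteins fill the cytosol of later cells, and Ly6g and the chemokine receptor Cxcr2 mark the surface of maturing and mature cells. C/EBP-epsilon and PU.1 are transcription factors known to act on many of these genes.

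The regulatory sequence just before the start sites is shown first, since the 10 genes lie on several chromosomes and were all higher with Dox. Each gene's 250 bases before its RefSeq start site (GRCm38.p6) were searched on both strands for TTGCNNAA, a core form of the site that C/EBP factors bind. It was found in 5 of the 10 promoters, against 9.55% of 27025 promoters of the same length. The 5 windows follow, 5′ to 3′ on the strand of the gene, with each match in capitals. They cover chr9:110419558-110419807 on the plus strand for Ngp, chr9:111019042-111019291 on the plus strand for Ltf, chr2:32387740-32387989 on the minus strand for Lcn2, chr3:90695722-90695971 on the minus strand for S100a9 and chr15:75155011-75155260 on the plus strand for the first of the Ly6g start sites.
Ngp: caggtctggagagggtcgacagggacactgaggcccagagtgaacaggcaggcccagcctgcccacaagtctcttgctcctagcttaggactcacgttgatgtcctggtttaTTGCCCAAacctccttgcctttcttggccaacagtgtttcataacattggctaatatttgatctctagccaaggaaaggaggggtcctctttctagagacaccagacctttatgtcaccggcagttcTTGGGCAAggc
Ltf: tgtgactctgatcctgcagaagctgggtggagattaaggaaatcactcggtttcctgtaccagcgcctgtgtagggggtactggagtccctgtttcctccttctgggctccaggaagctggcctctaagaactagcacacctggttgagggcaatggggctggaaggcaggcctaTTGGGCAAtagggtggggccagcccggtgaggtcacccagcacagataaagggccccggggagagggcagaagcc
Lcn2: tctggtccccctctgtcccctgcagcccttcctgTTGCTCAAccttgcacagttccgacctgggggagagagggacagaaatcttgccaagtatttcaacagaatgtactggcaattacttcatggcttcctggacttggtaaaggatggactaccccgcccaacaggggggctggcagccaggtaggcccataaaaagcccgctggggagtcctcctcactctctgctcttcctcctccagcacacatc
S100a9: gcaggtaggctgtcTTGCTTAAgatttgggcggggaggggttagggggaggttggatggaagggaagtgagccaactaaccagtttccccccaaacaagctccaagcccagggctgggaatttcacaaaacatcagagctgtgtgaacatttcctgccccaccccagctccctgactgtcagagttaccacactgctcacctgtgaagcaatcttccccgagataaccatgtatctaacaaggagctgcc
Ly6g: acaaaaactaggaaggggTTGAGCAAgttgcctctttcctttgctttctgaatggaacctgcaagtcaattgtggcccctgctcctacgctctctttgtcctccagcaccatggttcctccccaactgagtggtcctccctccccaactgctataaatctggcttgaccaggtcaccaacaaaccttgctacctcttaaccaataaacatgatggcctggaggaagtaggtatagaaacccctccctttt
Ngp alone held 2 matches, which began 138 and 11 bases before its start site, and 0.703% of all promoters held 2 or more. The matches of Ltf, Lcn2, S100a9 and Ly6g began 75, 216, 236 and 232 bases before the start site. Mpo, Elane, Camp, S100a8 and Cxcr2 had none in this window. The looser pattern TTNCNNAA, which contains the first, was in 6 of 10 promoters against 36.9% of all. GAGGAAG, a core of the site of PU.1, was in 5 of 10 against 10.4%: Mpo, Elane, Lcn2, S100a8 and Ly6g. TGTGGTT, a core of the RUNX site, was in 0 of 10 against 4.46%, and TATAAA on the gene's strand was in 2 of 10 against 8.12%. A match describes letters in the sequence only, and the motifs were chosen from general knowledge of granulocyte genes.

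Library depth was alike in the groups. Total counts ran from 5541486 to 7729988 without Dox and from 6498193 to 8725767 with Dox, so that 3 counts, the most that a count of 0 allows, came to between 0.344 and 0.541 CPM, that is, counts per 1000000 of the library total. The groups differed across much of the transcriptome: of 14110 tested genes, 45.6% passed an adjusted p-value of 0.05 in edgeR's quasi-likelihood test, 23.6% higher and 22.1% lower with Dox, with a median log2 fold change of 0.07 over all tested genes. Libraries varied more with Dox (common biological coefficient of variation 0.515) than without (0.190). Haemoglobin genes held 8.61% to 9.04% of counts without Dox and 14.1% to 15.9% with Dox. Y-linked genes had 545 to 801 counts in the libraries without Dox and 0 in each with Dox, where Xist, which coats the silenced X chromosome in females, had 3347 to 5669 counts against 193 to 324. The sex of the cells and Dox therefore cannot be told apart in any comparison that follows.

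All 10 genes were higher with Dox, and in each of them every library with Dox lay above every library without. Groups that did not overlap in that direction made up 30.0% of all tested genes (29.6% in the opposite direction), a share that is given for scale only, as these genes were chosen on this contrast. Together the 10 genes took 0.00507% to 0.00605% of counts without Dox and 0.256% to 0.266% with Dox. The median of their log2 fold changes was 5.64, and 2.7% of tested genes were called higher with a log2 fold change above 4. The low-count filter asks for about 1.47 CPM in at least 3 libraries. Camp, S100a8, S100a9 and Cxcr2 reached that level in every library of both groups. The other 6 reached it in every library with Dox and missed it in at least 1 library without.

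**Figure D1:**
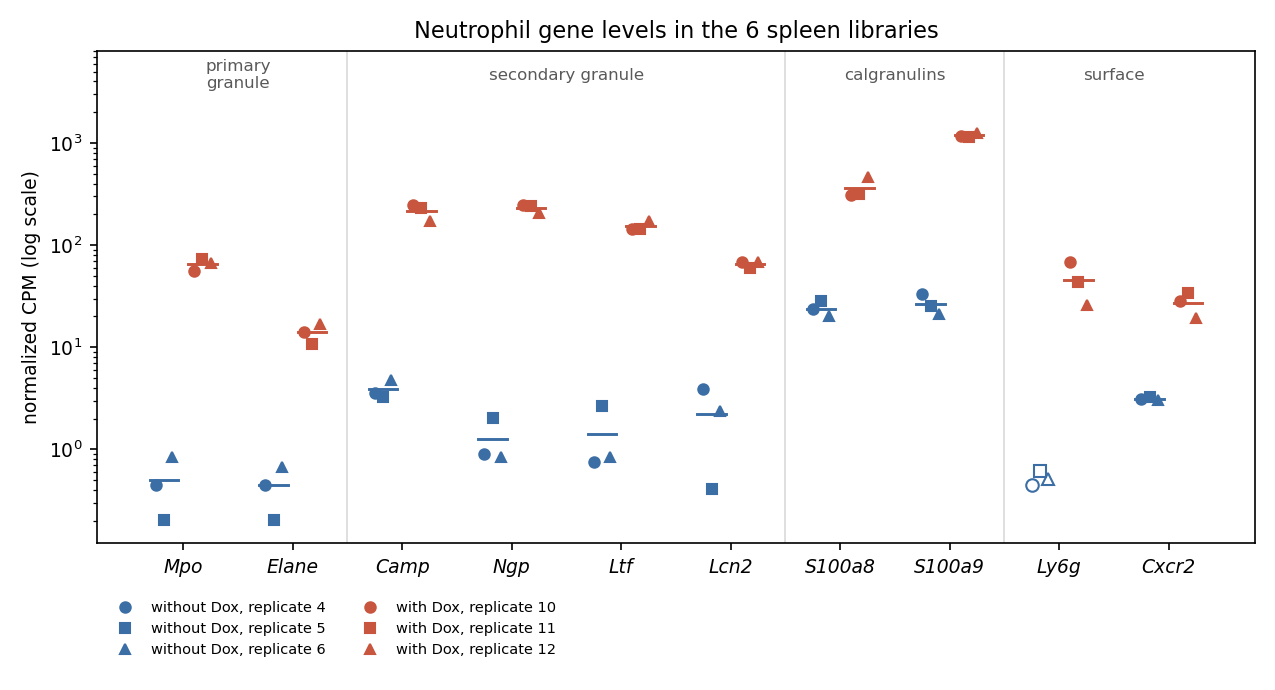
Level of each of the 10 genes in each library, as TMM-normalized CPM on a log axis, ordered by granule stage; short bars are group means and open symbols mark the floor of 3 counts for Ly6g, which had 0 counts without Dox. In every gene the 3 libraries with Dox lie above the 3 without.

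The primary granule genes were close to absent without Dox. Mpo (chr11:87793784-87804412, GRCm38), which codes for myeloperoxidase, the enzyme that makes hypochlorous acid, had 3, 1 and 5 counts in the 3 libraries of the group without Dox. With Dox it had 409, 711 and 505 counts. The mean level was 0.499 ± 0.326 CPM in the first group and 65.1 ± 8.84 CPM in the second (SD, n = 3). Over pooled counts this was a ratio of 128, with a 95% exact interval of 67.5 to 281 that covers counting error only. Elane (chr10:79886312-79888216), neutrophil elastase, had 3, 1 and 4 counts without Dox and 104, 104 and 129 with Dox. The pooled ratio was 30.0 (95% exact interval 15.03 to 69.97), and the mean with Dox was 13.95 ± 3.15 CPM (SD, n = 3). No library without Dox held more than 5 counts of either gene, and no library with Dox fewer than 104.

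The secondary granule genes showed some of the largest differences. Ngp (chr9:110419808-110423012), neutrophilic granule protein, had 6, 10 and 5 counts without Dox and 1825, 2340 and 1570 with Dox. Its log2 fold change was 7.56 ± 0.31 (SE), the highest of the 9 genes with counts in both groups. Ltf (chr9:111019292-111042766), the iron-binding lactoferrin, had 5, 13 and 5 counts without Dox and 1064, 1398 and 1321 with Dox, a log2 fold change of 6.83 ± 0.38 (SE), which was 7.50 without no-Dox replicate 5. Both genes were nearly silent in the group without Dox, below 3 CPM in each library.

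Camp (chr9:109847377-109849456), which codes for the antimicrobial cathelicidin, was the secondary granule gene best seen without Dox, at 24, 16 and 28 counts. It reached 1830, 2247 and 1299 counts with Dox, a log2 fold change of 5.80 ± 0.26 (SE). Lcn2 (chr2:32384637-32387739), a lipocalin that binds bacterial siderophores, varied most without Dox, at 26, 2 and 14 counts. With Dox it was even, at 501, 583 and 520 counts, and its log2 fold change was 4.81 ± 0.48 (SE), or 5.45 without no-Dox replicate 4. Lcn2 is also made by other cell types under inflammation. In mean level with Dox the order was Ngp (232 ± 22.1 CPM), Camp (217 ± 40.8), Ltf (154 ± 17.2) and Lcn2 (65.6 ± 4.82), with SD and n = 3 each. The ranges of Ngp and Camp overlapped, as did those of Camp and Ltf. In Dox replicate 12, Ltf (174 CPM) was above Camp (171 CPM).

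The calgranulins, which form the calcium- and zinc-binding heterodimer calprotectin, were the most abundant of the set in both groups. S100a9 (chr3:90692630-90695721) had 223, 125 and 125 counts without Dox and 8583, 11086 and 9426 with Dox. Its level of 1184 ± 52.4 CPM with Dox (SD, n = 3) stood at the 99.0th percentile of tested genes, against 26.6 ± 6.14 CPM and the 65.0th percentile without Dox. S100a8 (chr3:90669071-90670034) had 157, 139 and 119 counts without Dox and 2278, 3077 and 3544 with Dox. The log2 fold changes were 5.47 ± 0.21 (SE) for S100a9 and 3.93 ± 0.24 (SE) for S100a8. The partners were at similar levels without Dox, with 0.899 to 1.42 counts of S100a9 for each of S100a8, and at 2.66 to 3.77 with Dox.

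Ly6g (chr15:75155261-75159128), the GPI-anchored antigen that is used to identify mouse neutrophils, had 0 counts in each of the libraries without Dox. With Dox it had 503, 419 and 196 counts, or 68.5, 43.1 and 25.8 CPM. Against a floor of 3 counts in each library without Dox, it was at least 87.8-fold higher. Genes with 0 counts in all libraries without Dox that were called were 0.34% of those tested. That share is for scale only, since the set was chosen knowing that Ly6g had no counts there. Such genes also pass the low-count filter only through the libraries with Dox. Cxcr2 (chr1:74153994-74161246), the receptor for the chemokines that draw neutrophils out of the marrow, was detected without Dox at 21, 16 and 18 counts. It had 208, 333 and 146 counts with Dox, and a log2 fold change of 3.11 ± 0.36 (SE), the smallest of the set. Its level without Dox hardly varied, at 3.14 ± 0.0958 CPM, and was 27.3 ± 7.57 CPM with Dox (SD, n = 3).

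**Figure D2:**
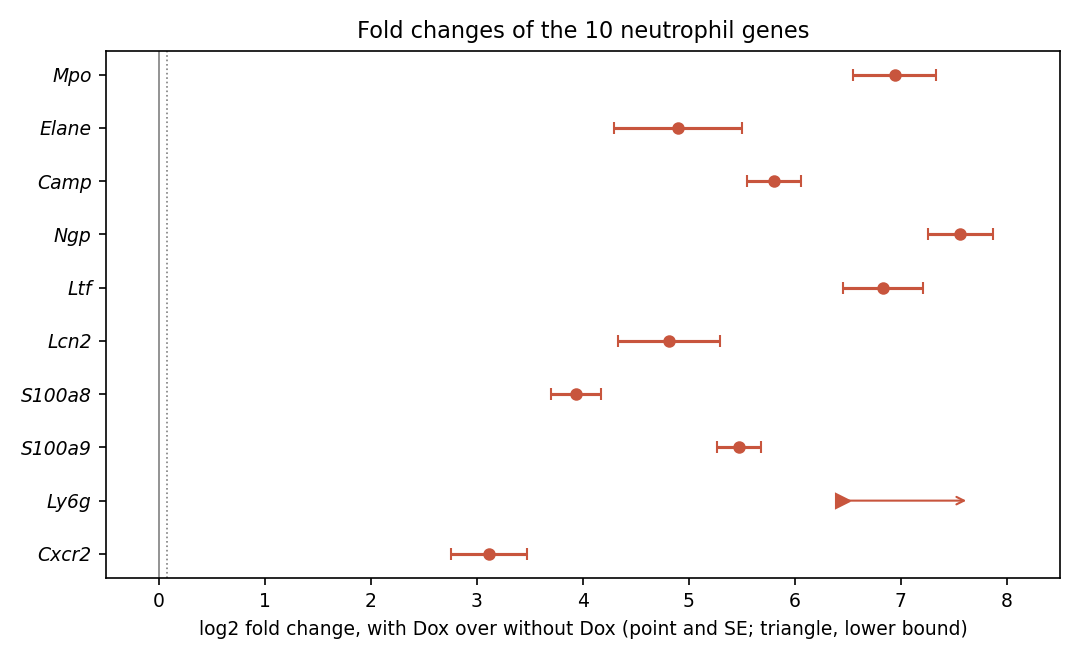
Log2 fold change of each gene, with Dox over without Dox, from the edgeR fit, with its standard error; the triangle with an arrow is the lower bound for Ly6g, and the dotted line is the median of all tested genes, 0.07. Among the genes with counts in both groups, the log2 fold changes run from 3.11 for Cxcr2 to 7.56 for Ngp.

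The sequences at the 3′ ends, from which these libraries were read, were checked for copies elsewhere. For 8 of the 10 genes, no 50-base window in the last 400 bases of their coding transcripts was found in a transcript of another gene. Ly6g shared 0.313% of its windows with Ly6i, a neighbouring member of its family, which had at most 8 counts in any library. Cxcr2 shared 2.85%.

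The make-up of the 10 genes' counts differed between the groups. Without Dox, S100a8 and S100a9 held 75.5% to 81.7% of the counts of the 10 genes, and with Dox 62.8% to 69.5%. The secondary granule genes held 12.7% to 16.1% without Dox and 25.2% to 30.2% with Dox. The primary granule genes held 0.619% to 2.79% and 2.96% to 3.66%. Their share in the library with 0.619% rests on 2 counts of 323 (95% exact interval 0.0751% to 2.22%). The surface genes held 4.49% to 5.57% without Dox, all of it Cxcr2, and 1.83% to 4.11% with Dox.

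**Figure D3:**
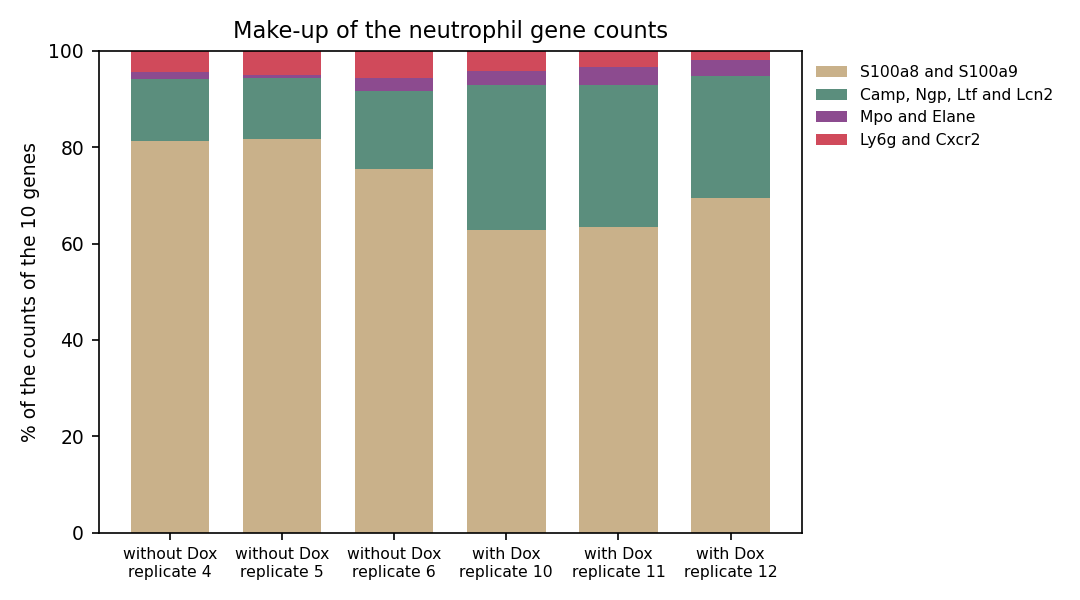
Share of each stage among the summed counts of the 10 genes in each library, in percent. The band of S100a8 and S100a9 is deepest in the libraries without Dox (75.5% to 81.7%), and the band of Camp, Ngp, Ltf and Lcn2 is deeper in those with Dox (25.2% to 30.2%).

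The same point can be put against S100a9, which had 473 counts pooled over the libraries without Dox. At the proportions of the libraries with Dox, so many S100a9 counts would go with 78.8 to 101 counts of Ngp, and 21 were seen. The figures were 58.6 to 66.3 against 23 for Ltf and 22.5 to 30.3 against 9 for Mpo. For Ly6g they were 9.84 to 27.7 against 0, a lack of counts that the set was chosen on. Camp, with 68 counts, lay inside its range of 65.2 to 101. S100a8 went the other way, with 415 counts seen against 126 to 178, as did Cxcr2 with 55 against 7.33 to 14.2 and Lcn2 with 42 against 24.9 to 27.6. Of those 42 counts of Lcn2, 26 came from replicate 4, and replicate 5 had only 2 beside 125 of S100a9, fewer than in any library with Dox for that much S100a9. Elane had 8 against 4.44 to 6.47. Without Dox the counts leaned to S100a8 and Cxcr2, and with Dox to Ngp, Ltf and Mpo. These proportions were chosen after the values were seen.

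Within the group with Dox the genes differed in how evenly they were expressed. S100a9 had a coefficient of variation of 4.43% over the 3 libraries, and 1.56% of tested genes of like level had a lower one. Lcn2 (7.36%), Ngp (9.52%), Ltf (11.1%), Mpo (13.6%) and Elane (22.6%) were also below the median of genes of their level. Ly6g had the highest, 46.8%, where genes of like level had a median of 21.6% and 93.8% of them varied less. It was highest in replicate 10 and lowest in replicate 12, a 2.65-fold range. S100a8 (24.4% against a median of 15.8%), Cxcr2 (27.8% against 26.9%) and Camp (18.8% against 17.1%) were also above the median of their level.

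**Figure D4:**
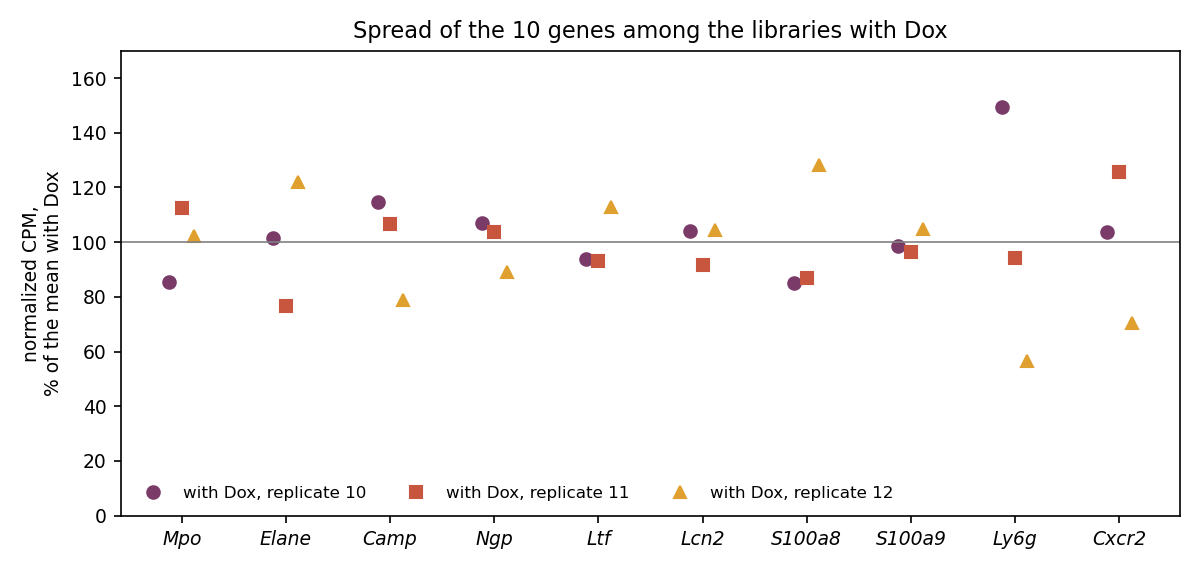
Level of each gene in each library with Dox, as a percentage of its mean over the 3 libraries. Ly6g runs from 149% in replicate 10 to 56.4% in replicate 12, while S100a9 stays between 96.4% and 105%.

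The order of the libraries with Dox was not the same from gene to gene. In replicate 10 there were 1.23 counts of Ly6g for each of Mpo, in replicate 11 there were 0.589 and in replicate 12 there were 0.388. Replicate 12 held the least Ly6g (25.8 CPM), Cxcr2 (19.2 CPM), Camp (171 CPM) and Ngp (207 CPM). It held the most S100a8 (467 CPM), S100a9 (1242 CPM), Ltf (174 CPM), Lcn2 (68.5 CPM) and Elane (17.0 CPM), while Mpo was highest in replicate 11. Genes of 1 granule stage thus went both ways. A few low-count genes of mature neutrophils appeared in replicate 10 alone of the 6 libraries: Mrgpra2b, a receptor gene of the Mrgpr family, had 29 counts there, Stfa1, a stefin, 10 counts, and Mrgpra2a 9, with 0 in each of the others. Better counted genes of the same list went both ways. Fpr2 (42.7, 24.6 and 17.3 CPM in replicates 10, 11 and 12) and Csf3r, the G-CSF receptor (18.9, 14.3 and 11.99 CPM), had the order of Ly6g. Itgam (59.2 CPM), Slfn4 (44.8 CPM) and Trem1 (9.75 CPM) were highest in replicate 12. Cebpe, whose factor drives the step to secondary granules, ran the other way, with 20 counts in replicate 10, 87 in replicate 11 and 127 in replicate 12. These genes were picked out after their values were seen, and with 3 libraries the differences between replicates were not tested.

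Other neutrophil genes, which did not define the set, were called higher more often than lower. Of 47 found in the table, 28 could be tested, and 20 rose and 4 fell with Dox. These counts are not set against the 23.6% and 22.1% of all tested genes that rose and fell. The reason is that 20 of the 28 missed 1.47 CPM in at least 1 library without Dox. The median log2 fold change of the 28 was 4.03. As with the 10 genes, this count leans on the filter: only 8 of the 28 reached 1.47 CPM in every library of both groups, and of these 2 rose, Itgam and Lyz2, and 4 fell. Itgam, the alpha chain of the integrin Mac-1, went from 2.84 ± 0.909 to 51.6 ± 8.38 CPM (SD, n = 3; log2 fold change 4.16 ± 0.32, edgeR adjusted p = 8.8e-06).

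Among other primary granule genes, each of the 4 tested was near 0 without Dox and rose. All 4 passed the low-count filter only through the libraries with Dox, so that the filter itself favoured this direction, and their count is not set against the 23.6% of all tested genes that rose. Prtn3, proteinase 3, had 5, 4 and 0 counts without Dox and 359, 358 and 225 with Dox, a pooled ratio of 74.4 (95% exact interval 39.0 to 163; edgeR adjusted p = 3.14e-05). Ms4a3, a marker of granulocyte-monocyte progenitors, had 1, 0 and 0 counts against 53, 117 and 127 (adjusted p = 0.000164 in edgeR). Fcnb, a ficolin, had 0 counts in each library without Dox and was at least 48.6-fold higher (adjusted p = 4.58e-05 in edgeR). Ctsg, cathepsin G, had 2 counts in all without Dox and 154 with Dox (adjusted p = 0.00163 in edgeR). Bpi, the gene of a bactericidal protein, could not be tested and ran the other way, at 6, 3 and 13 counts without Dox and 0 in each library with Dox.

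Of 10 secondary and tertiary granule genes tested, 7 rose and 2 fell. These counts are not set against the 23.6% and 22.1% of all tested genes that rose and fell. Of the 10, 6 missed 1.47 CPM in at least 1 library without Dox. Of the 4 that reached 1.47 CPM in every library, 1 rose and 2 fell. Cd177, a surface and granule protein, had 2, 2 and 0 counts without Dox and 275, 295 and 577 with Dox (edgeR adjusted p = 1.66e-05). Mmp8, neutrophil collagenase, went from 0.444 ± 0.493 to 28.4 ± 2.05 CPM (SD, n = 3), Chil3, a chitinase-like protein, from 1.51 ± 0.601 to 40.2 ± 12.5 CPM, and Mmp9, gelatinase B, from 0.671 ± 0.840 to 16.2 ± 3.57 CPM. Of the 13 counts of Mmp9 without Dox, 11 were in replicate 4, and its log2 fold change of 4.48 was 6.29 without that library. Mmp8 had 5 of its 7 counts without Dox in replicate 5, and its 6.06 was 7.27 without it. Cd177 went from 7.60 to 6.95 without no-Dox replicate 6. The genes that fell were better expressed without Dox than any of these. Slpi, an inhibitor of leukocyte proteases, was at 179, 142 and 176 CPM without Dox and at 16.2, 12.4 and 6.98 with Dox (log2 fold change −3.80 ± 0.30, edgeR adjusted p = 9.09e-06). Lrg1, a secreted glycoprotein stored in granules, fell by 2.47 ± 0.37 on the log2 scale (edgeR adjusted p = 0.000447). Padi4, the enzyme that citrullinates histones, had 4.95 ± 1.48 CPM without Dox and 10.1 ± 5.16 with Dox and did not pass (adjusted p = 0.145 in edgeR). Both Slpi and Lrg1 are also made by other cells.

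Of 28 genes of mature neutrophils in the table, 14 could be tested, and 9 rose and 2 fell. Here too the counts are not set against the 23.6% and 22.1% of all tested genes that rose and fell. Of the 14, 10 missed 1.47 CPM in at least 1 library without Dox. Of the 4 that reached 1.47 CPM in every library, 1 rose and 2 fell. Fpr2, a receptor for formylated peptides, had 4, 2 and 0 counts without Dox and 314, 239 and 131 with Dox (edgeR adjusted p = 6.58e-05). Slfn4 (0.416 to 33.1 CPM), Trem1 (0.294 to 7.03 CPM) and the leukotriene B4 receptor Ltb4r1 (0.636 to 12.3 CPM) were the next in fold change. Leaving out 1 library without Dox moved the log2 fold changes of these 4 genes, to between 5.65 and 7.08 for Fpr2, 5.50 and 8.19 for Slfn4, 3.88 and 5.97 for Trem1 and 3.76 and 5.52 for Ltb4r1. Wfdc17 fell from 12.7 ± 1.59 to 3.20 ± 1.24 CPM (SD, n = 3; adjusted p = 0.00587 in edgeR). Mxd1 and G0s2 did not pass (adjusted p = 0.159 and 0.108 in edgeR). Without Dox replicate 12, G0s2 was called higher, with an adjusted p of 0.00504 in edgeR, as was Padi4 with 0.0454. Many genes of the fully mature blood neutrophil were hardly seen in either group: Cxcr1 and Stfa2 had 0 counts in all libraries, and none of the 14 untested genes had more than 38 counts in any library.

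**Figure D5:**
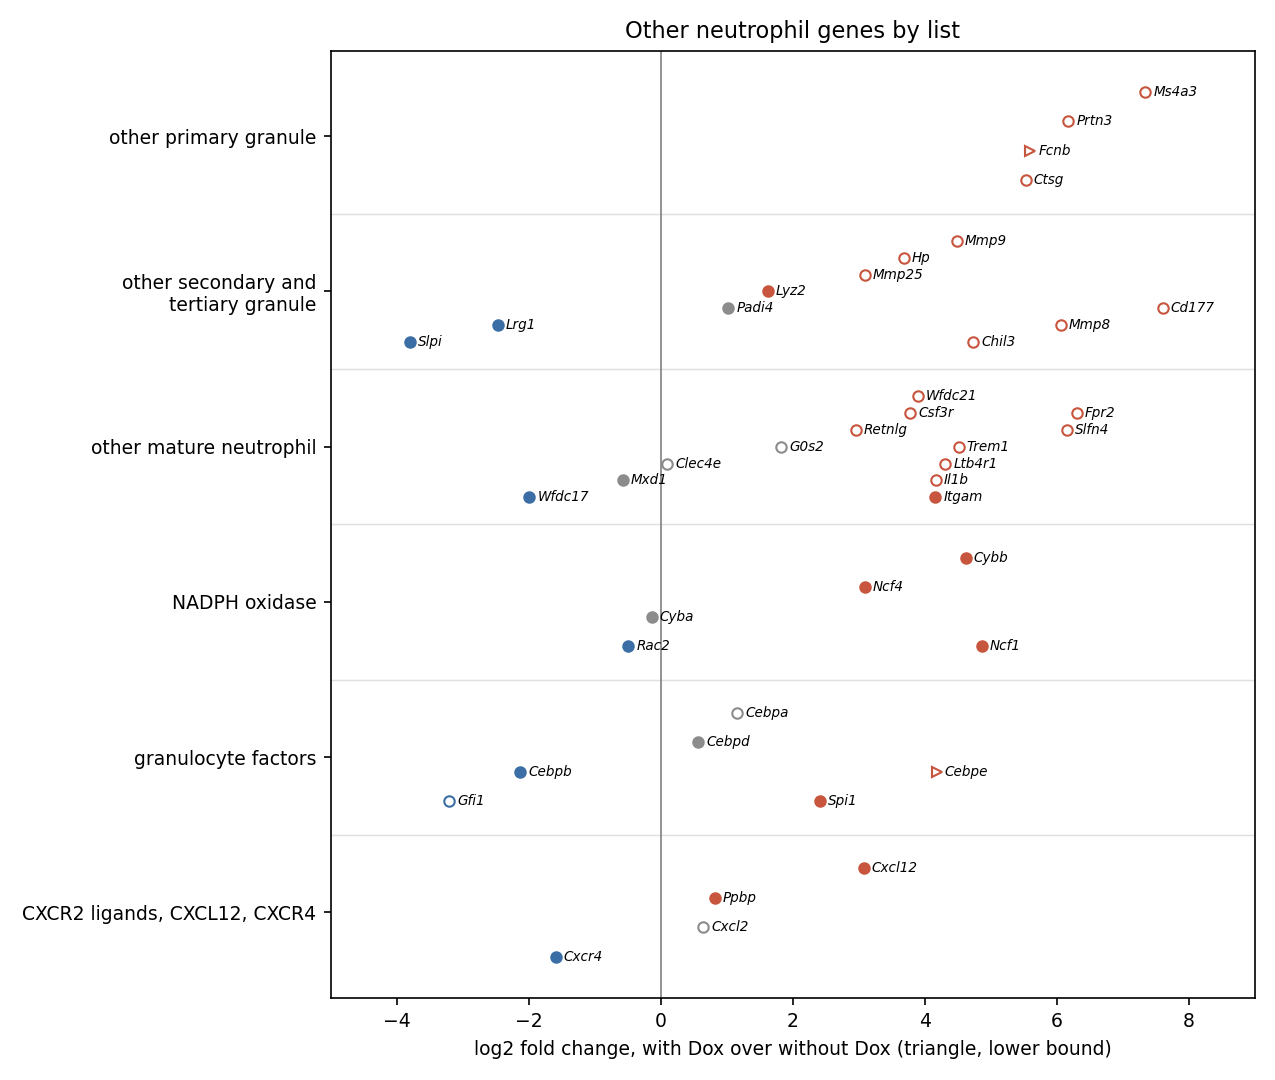
Log2 fold change, with Dox over without Dox, of tested genes of 6 lists; red genes were called higher, blue lower and grey not called in edgeR, filled symbols reached 1.47 CPM in every library of both groups, open ones did not, and triangles are lower bounds. Primary granule genes all lie to the right of 5, while the other lists hold genes on both sides of 0.

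The NADPH oxidase, which makes superoxide in neutrophils and other phagocytes, was measured well in both groups, and the genes named here were above the low-count limit in every library. Cybb, the catalytic subunit, went from 19.3 ± 1.79 to 475 ± 52.9 CPM (SD, n = 3; log2 fold change 4.62 ± 0.19, edgeR adjusted p = 5.37e-07). The cytosolic subunits Ncf1 and Ncf4 rose by 4.86 ± 0.26 and 3.09 ± 0.33 on the log2 scale (adjusted p = 1.8e-06 and 5.27e-05 in edgeR). Cyba, the membrane partner of Cybb, was at 77.9 ± 1.44 CPM without Dox and 70.7 ± 9.65 with Dox (adjusted p = 0.549 in edgeR). Rac2 fell by 0.49 ± 0.15 on the log2 scale (edgeR adjusted p = 0.0227), a call that was lost under upper-quartile factors and under scaling by library size alone (adjusted p = 0.0555 and 0.371), and without no-Dox replicate 4 or 5 (adjusted p = 0.0553 and 0.0788). B cells and macrophages express several of these subunits as well.

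The transcription factors of granulocytes did not move as a block. Of 6 tested, 2 rose and 2 fell (33.3% each), against 23.6% and 22.1% of all tested genes. These shares lean on the filter, since 2 of the 6 missed 1.47 CPM in at least 1 library without Dox. A further 1 missed it in at least 1 library with Dox. Among the 3 that reached 1.47 CPM in every library, Spi1 rose and Cebpb fell. Cebpe, which passed the filter through the libraries with Dox alone, had 0 counts in each library without Dox and was at least 18.2-fold higher with Dox (adjusted p = 0.00147 in edgeR), or at least 11.2-fold without Dox replicate 12. Spi1, which codes for PU.1 and is shared with B cells and macrophages, rose by 2.41 ± 0.52 on the log2 scale (edgeR adjusted p = 0.00417). Gfi1, a repressor needed for neutrophil maturation and active in lymphocytes too, was at 25.1, 29.8 and 34.2 CPM without Dox and 6.94, 0 and 2.90 CPM with Dox. It fell by 3.21 ± 0.88 on the log2 scale (edgeR adjusted p = 0.0137). The log2 fold change was nearly the same in DESeq2 (−3.21) and without no-Dox replicate 6 (−3.16), but was not called there (adjusted p = 0.0667 in DESeq2 and 0.0554 in edgeR). It was −4.45 without Dox replicate 10, −2.61 without Dox replicate 11 and −5.24 in limma-voom. Cebpb fell by 2.13 ± 0.50 (edgeR adjusted p = 0.00626), with a log2 fold change of −2.93 without Dox replicate 10. Cebpa (2.38 ± 1.28 and 5.37 ± 4.01 CPM) and Cebpd (5.09 ± 1.26 and 7.54 ± 0.925 CPM; SD, n = 3) did not pass (adjusted p = 0.271 and 0.360 in edgeR).

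Around Cxcr2, the chemokine genes were few. Its ligand genes Cxcl1 and Cxcl3 had 0 counts in all 6 libraries, Cxcl2 was at 1.18 ± 1.48 and 1.86 ± 0.907 CPM (adjusted p = 0.665 in edgeR), and Ppbp, a platelet gene, rose by 0.82 ± 0.20 on the log2 scale (edgeR adjusted p = 0.00767; 0.0714 without the library of no-Dox replicate 5). Cxcl12, the stromal chemokine that retains neutrophils in the marrow, rose from 13.5 ± 4.68 to 114 ± 7.88 CPM (SD, n = 3; edgeR adjusted p = 1.99e-05). Cxcr4, its receptor, fell by 1.59 ± 0.25 on the log2 scale (edgeR adjusted p = 0.000597). Cxcr4 is carried by lymphocytes and progenitors as well as by young neutrophils.

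The families of Ly6g and of the calgranulins moved less. For scale, 23.6% of all tested genes were called higher and 22.1% lower. Of 5 Ly6 genes tested, Ly6a (log2 fold change 2.47 ± 0.18), Ly6d (1.87 ± 0.19) and Ly6c2 (1.34 ± 0.27) rose, Ly6e fell by 0.87 ± 0.13, and Ly6c1 did not pass (edgeR adjusted p = 0.384). None came near the lower bound of Ly6g, 6.46 on the log2 scale. Of 7 other S100 genes tested, 5 rose, led by S100a4 with 2.86 ± 0.26 (edgeR adjusted p = 1.95e-05), S100a13 fell by 1.11 ± 0.26 (edgeR adjusted p = 0.00633) and S100a1 did not pass (edgeR adjusted p = 0.250). Of the 5, S100a16 missed 1.47 CPM in at least 1 library without Dox. It was not called when any 1 of the libraries without Dox was left out (adjusted p = 0.0778, 0.0837 and 0.0521 in edgeR). S100a6 was not called without no-Dox replicate 5 or 6 (adjusted p = 0.0531 and 0.0658 in edgeR). S100a8 and S100a9 had larger fold changes than any of these, a difference that was not tested.

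Genes next to the 10 on the chromosome did not share their size of change. Within 100 kb, 37 other genes were tested, and 14 rose (37.8%, against 23.6% of all tested genes) and 5 fell. Their median log2 fold change was 0.45, against 0.07 over all tested genes. Only Prtn3, which lies 3138 bases from Elane in a cluster of granule protease genes, had a log2 fold change above 3. This look at neighbours was chosen after the values were seen.

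Markers of other cell types differed between the groups too, in different directions. Of all tested genes, 23.6% rose and 22.1% fell. All 6 B cell markers rose (median log2 fold change 5.36, summed level 26.6 to 34.6 CPM without Dox and 1495 to 1651 CPM with Dox). Of these 6, 2 missed 1.47 CPM in at least 1 library without Dox. All 7 T cell markers fell (median −3.39, summed level 1195 to 1269 CPM without Dox and 91.4 to 105 CPM with Dox). Of 14 monocyte and macrophage markers tested, 3 rose and 4 fell (21.4% and 28.6%, against 23.6% and 22.1% of all tested genes), with sums of 838 to 961 CPM and 1045 to 1308 CPM. Ccr2, of inflammatory monocytes, rose by 4.37 ± 0.45 and Cx3cr1 by 3.90 ± 0.42 on the log2 scale (edgeR adjusted p = 4.7e-05 and 6.01e-05), in the range of the neutrophil genes. Ccr2 had 7 counts (1.19 CPM) in no-Dox replicate 6, below the low-count limit. Adgre1, the macrophage marker F4/80, fell by 1.68 ± 0.41 on the log2 scale (edgeR adjusted p = 0.00786; 0.0551 without no-Dox replicate 4). Eosinophil markers summed to 11.6 to 21.0 CPM without Dox and 28.6 to 41.0 CPM with Dox, with Il5ra and Prg2 called higher of 3 tested, both of which missed 1.47 CPM in at least 1 library without Dox (edgeR adjusted p = 0.00381 and 0.0296). Neither was called in limma-voom (adjusted p = 0.0518 and 0.0710), and Prg2 was not called when any 1 library was left out other than Dox replicate 10 (adjusted p = 0.0556 to 0.117 in edgeR). Siglecf, their defining surface marker, had 8, 0 and 0 counts without Dox and 0 in each library with Dox. Basophil and mast cell markers summed to 9.32 to 11.3 and 56.9 to 71.8 CPM, and erythroid markers to 1063 to 1379 and 1571 to 1683 CPM. The part of these cell types in the levels of the 10 genes was not tested.

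The 5 genes with the profile nearest to the mean of the 10, over the 6 libraries and among 6993 genes of at least median level, were Cxcl13, Gm26740, Pax5, Zfp608 and H2-Ob. Likeness was the mean absolute difference of centred log2 (CPM + 0.5) values, which was 0.0965 for Cxcl13 and 0.233 for H2-Ob. The 10 genes themselves lay between 0.163 and 1.19 from their mean. Pax5, the B cell transcription factor, went from 14.9 to 504 CPM, and Cxcl13, a chemokine of B cell follicles, from 2.50 to 115 CPM. The 6 libraries form 2 groups, so profiles of this kind share 1 large step between them.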

How the data were processed

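RNA of spleen leukemia cells of mice with transplanted bone marrow was made into 3′ mRNA libraries with a QuantSeq V2 forward kit, per the labels' protocols. The authors deposited raw counts per Entrez gene ID, 1 column for each library, with replicates kept apart. STAR, featureCounts and build GRCm38 are named in the submitters' processing notes, without versions. How reads from several places and any molecular identifiers were treated is not given in the sources used here, so intervals cover counting error only. Counts were not scaled by length, since each transcript gives about 1 fragment. Of 40808 IDs, 39374 (96.5%) had a symbol in the RefSeq table of GRCm38.p6, which also gave coordinates and promoters.

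Genes were fitted with edgeR 4.0.16 in R 4.3.3: filterByExpr (minimum count 10, minimum total 15), TMM factors and the quasi-likelihood F-test on all 6 libraries without covariates, with Benjamini-Hochberg adjustment over the tested genes and calls at 0.05. A standard error is the log2 fold change over the root of F. CPM are TMM-normalized. A fold against a group at 0 used a floor of 3 counts per library, and genes with 5 counts or fewer in every library without Dox have a ratio of pooled counts with an exact binomial interval. On simulated data of 13511 genes, the fit called 54.7% of 192 genes changed by 2 on the log2 scale, 0 with the wrong sign. It also called 7 of 13319 unchanged genes. Only those 192 genes were changed there, whereas 45.6% of tested genes were called in the 6 libraries. The rate of false calls with so large a share of changed genes was not tested.

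The 10 genes and the gene lists were chosen with earlier results of these data known. Named from each list were up to 4 called genes of largest change, up to 2 called against the list's direction and up to 2 uncalled genes of highest level. Itgam, Lyz2, Bpi, Cebpe in single libraries, Stfa1, Stfa2, Cxcr1, the Mrgpra2 genes, Siglecf, S100a6, S100a16, Cxcl1 and Cxcl3 were named after their values were seen. Alternatives were RLE, upper-quartile or no composition factors, other low-count filters, leaving out haemoglobin genes, DESeq2 1.42.0, limma-voom (limma 3.58.1), a threshold of 0.01 and leaving out each library. Some genes of the lists are counted but not reported here by name.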

Additional observations from a re-analysis of the deposited data

How the results depend on the processing

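The number of genes called ran from 4396 at a threshold of 0.01 to 7025 without Dox replicate 12, against 6438. Leaving out each library in turn gave 4794 to 7025 genes called, a median log2 fold change of the 10 genes of 5.50 to 5.67, and 20 to 22 other neutrophil genes higher and 4 lower. The median of the 10 genes was 5.64 and moved beyond the spread between libraries only under scaling by library size alone, to 5.95, as that scaling moved the median of all genes from 0.07 to 0.38 and the share of called genes that were higher from 51.6% to 64.3%. Upper-quartile factors moved the median of all genes to 0.17. The 10 genes stayed higher with Dox in all 134 single values under the alternatives. This is no separate support, since the genes were picked knowing how they moved in these libraries. With at least 10 counts required in every library, only 2 other neutrophil genes were higher and 4 lower, since fewer genes were tested, and the median of the 10 genes could not be given. Of 372 values of other neutrophil genes, 3 changed their call, all to called (G0s2 and Padi4), and 0 changed direction with a call. Of 925 values of the remaining lists, 37 lost a call, 21 gained one and 0 reversed. Low counts without Dox limit the ratios of Mpo, Elane, Ngp, Ltf, Lcn2 and Ly6g, and those of the other neutrophil genes near 0 there. Leaving out 1 library without Dox moved Ms4a3 from 7.34 to 9.40, Prtn3 from 6.18 to 5.52, Ctsg from 5.53 to 4.92 and Ccr2 from 4.37 to 4.995 on the log2 scale. No paired analysis was possible because no replicate number occurs in both groups.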
